A study of Mus musculus with 10 samples.

Results

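The genes described here are the parts of the T cell antigen receptor complex and its coreceptors: the CD3 chains Cd3d, Cd3e and Cd3g, the coreceptors Cd4 and Cd8a, the costimulatory receptor Cd28, the kinases Lck and Zap70, and Il2rb, a receptor chain for interleukin-2 and interleukin-15. They were measured in arthritic mouse synovium with and without maslinic acid. Of the 9 genes, 8 had a probe set that the platform annotation names for that gene alone, out of 18128 genes in all, and Lck was not analysed here. Where a gene had several probe sets, the one with the highest mean over the 10 arrays was used, so the probe sets were chosen by their mean level. The genes were selected on earlier results of these data, among them the low Cd4 value with maslinic acid against vehicle, so differences between the groups are given below as a description and support nothing. The question put to the data was which other T cell genes varied with Cd4 over the arrays.

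All animals were male DBA/1J mice, bought at 5 weeks and labelled as 8 weeks of age, with collagen antibody-induced arthritis, for which each got 1 mg of a monoclonal antibody to type II collagen on day 8. Lipopolysaccharide, 25 µg, followed on day 11. In the maslinic acid group (n = 5), this olive triterpene was given daily by mouth in corn oil at 200 mg per kg. The vehicle group (n = 5) had the same arthritis and corn oil alone. Synovium of the left hind leg was taken on day 12, and each mouse gave 1 GeneChip array. Arthritis of this kind is started by transferred antibody and not by the animal's own T cells, the 5 animals on arrays were picked out of each larger group by a criterion the labels do not state, and no unarthritic mice were analysed here.

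T cells recognise antigen with a receptor whose clonal chains carry no signal of their own. The CD3 chains and the zeta chain (Cd247) sit beside them and are phosphorylated by LCK, which CD4 on helper cells and CD8 on cytotoxic cells bring to the complex. ZAP70 then docks on the phosphorylated chains and passes the signal on, while CD28 gives the second, costimulatory signal. CD3 chains are close to restricted to T cells, whereas in mice Cd4 is also found on some dendritic cells, Cd8a on some dendritic cells, and Il2rb on natural killer cells.

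The 3 CD3 genes are neighbours on chromosome 9, and their promoters are shown because probe sets of these neighbours differed widely in how much they varied between mice. Cd3g and Cd3d are transcribed away from each other, with 854 bases between their promoter windows. Each window runs 5′ to 3′ from 250 bases before to 50 bases after the start in RefSeq (GRCm38.p6), and the capitals mark motif matches on either strand. An E-box was searched as the letters CAGGTG and its reverse complement. A GATA motif was searched likewise, with the letters AGATAA. No match overlaps another.
Cd3d, chr9:44981536-44981835, plus strand: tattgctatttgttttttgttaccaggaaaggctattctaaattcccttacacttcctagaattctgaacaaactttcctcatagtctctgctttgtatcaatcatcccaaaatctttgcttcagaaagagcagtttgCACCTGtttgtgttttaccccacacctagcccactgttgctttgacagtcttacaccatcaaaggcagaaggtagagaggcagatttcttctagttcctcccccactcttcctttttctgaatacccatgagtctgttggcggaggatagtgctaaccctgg
Cd3e, chr9:45009562-45009861, minus strand: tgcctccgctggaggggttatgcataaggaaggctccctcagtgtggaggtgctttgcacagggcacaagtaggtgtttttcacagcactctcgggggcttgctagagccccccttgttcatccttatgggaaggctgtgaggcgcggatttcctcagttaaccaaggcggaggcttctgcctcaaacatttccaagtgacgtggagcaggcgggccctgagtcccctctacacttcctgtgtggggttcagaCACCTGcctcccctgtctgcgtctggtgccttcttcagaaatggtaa
Cd3g, chr9:44980382-44980681, minus strand: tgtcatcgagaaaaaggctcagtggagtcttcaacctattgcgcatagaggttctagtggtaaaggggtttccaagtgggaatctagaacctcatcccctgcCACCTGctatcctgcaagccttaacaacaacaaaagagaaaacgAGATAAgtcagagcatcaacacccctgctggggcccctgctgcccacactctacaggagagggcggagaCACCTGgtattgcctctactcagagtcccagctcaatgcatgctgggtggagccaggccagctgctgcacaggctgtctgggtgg
All 3 windows held the E-box, once in Cd3d, once in Cd3e and at 2 places in Cd3g, and 20.2% of all 32851 promoter windows of this length hold it. The GATA motif was found in Cd3g alone of the 3 and is held by 11.2% of all windows, and TGTGGT, a RUNX motif held by 16.8%, had no match in the 3. These are matches of letters and nothing was measured of binding there. A promoter entry was found for 6 of the 9 genes.

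Values are given as the deposited scores, whose scale is unknown. Since most probe sets varied only in the last decimals, the table may be an adjusted or otherwise transformed version of the array signals, which was not tested, and a step or a g then describes that version and not a fold of RNA. Differences between arrays are therefore written in steps, where 1 step is 0.000001 score units, the last deposited decimal, and 0 is the lowest of the 10 arrays for that probe set. The median gene spanned 28 steps over the 10 arrays. Of the 8 T cell genes, 5 spanned fewer than 20 steps, as did 48.3% of all probe sets. The same 5 took 7 or fewer distinct values over the 10 arrays, as did 36.6% of all genes, and the other 3 took 10, as did 37.2% of all genes. Array medians lay 121 to 272 steps above the lowest array in maslinic acid mice, against 0 to 236 steps in vehicle mice. These medians differed by more steps than most of these genes did, and by more than the 28 steps of the median gene. They thus do not stand for a shift shared by most genes. Centring arrays on their medians therefore writes the array medians into genes of small range. Quantile normalization puts the mean score of each rank in place of the score. Beside Cd4, 16279 genes then varied, against 18037 as deposited. A g or r after either scaling, where given below, does not check such a gene. Vehicle replicates 3 and 5 stood apart, with limma's array quality weight at 0.458 and 0.339 while the remaining 8 arrays had 0.857 to 2.01. Values without them are given below for the 8 genes and for part of the lists and named genes. Mean scores of the 8 genes lay between percentiles 40.4 and 74.3 of all probe sets, 3 of them below the table median of 6.74. A score also depends on the probes, so no order of expression between genes is read from it.

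In maslinic acid mice Cd4, the helper T cell coreceptor that binds MHC class II, was lower in every array than in any vehicle mouse, by a few steps. The probe set (mean score 6.99, 7 distinct values) was at 4, 0, 4, 5 and 5 steps in maslinic acid replicates 1 to 5, against 6, 13, 9, 10 and 10 steps in vehicle replicates 1 to 5. The nearest arrays of the groups were thus 1 step apart. The means were 3.6 ± 2.07 steps with maslinic acid and 9.6 ± 2.51 steps with vehicle (SD, n = 5 each), a Hedges' g of -2.35 (95% interval -3.91 to -0.73). Hedges' g is the difference of the means over their pooled SD, multiplied by a correction for small samples. Groups did not overlap with lower values under maslinic acid in 0.734% of all genes, a share from which nothing is read, because Cd4 was chosen for this value. The other probe set of Cd4 took 2 values 1 step apart. There, 2 of 5 maslinic acid arrays and 4 of 5 vehicle arrays held the upper value (g = -0.72, -1.87 to 0.47). With each array centred on its own median the g of Cd4 was -0.46, and after quantile normalization -0.80. As array medians span 272 steps and Cd4 spans 13, the centred value mostly carries the array medians and does not check the Cd4 difference. Nor does the value after quantile normalization. Without vehicle replicates 3 and 5 the g of Cd4 was -2.0. Whether a difference of so few steps reflects RNA at all was not tested. In bulk tissue, moreover, fewer cells of a type and less RNA per cell cannot be told apart.

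**Figure D1:**
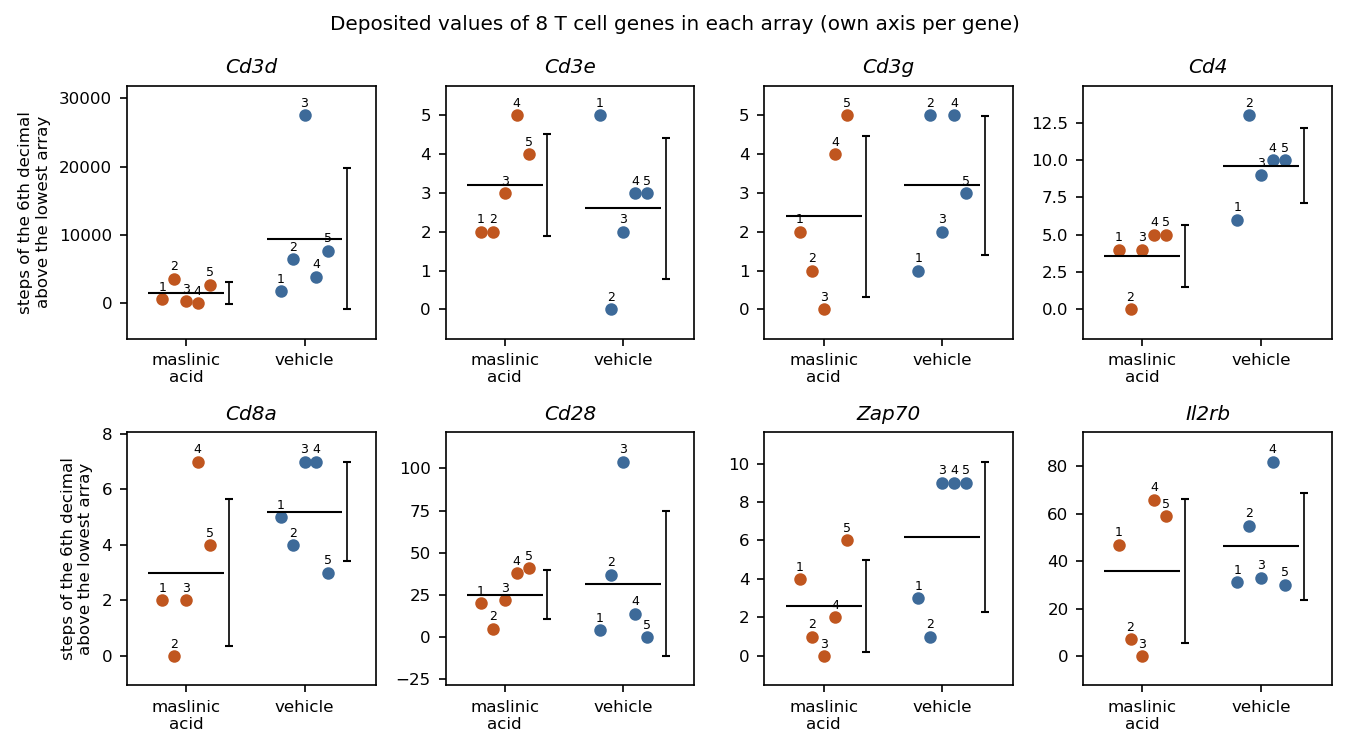
Deposited values of the 8 T cell genes in each array, in steps of the 6th decimal above the lowest array, with an own vertical axis for each gene; points are arrays labelled by replicate number (orange maslinic acid, blue vehicle), horizontal lines are means and bars at the side are the SD (n = 5 each). In Cd4 alone of the 8 all maslinic acid arrays lie below all vehicle arrays, and Cd3d reaches 27530 steps in vehicle replicate 3.

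The CD3 chains did not share this pattern. Cd3d, the delta chain, spanned 27530 steps, a range that 0.45% of all probe sets reached. It was at 541, 3601, 301, 0 and 2687 steps in maslinic acid mice, against 1746, 6401, 27530, 3903 and 7681 steps in vehicle mice. Vehicle replicate 3 stood far above the rest, and the groups overlapped through vehicle replicate 1, which lay below maslinic acid replicates 2 and 5. The g was -0.98 (-2.17 to 0.26), and -1.47 without vehicle replicate 3. Cd3e, the epsilon chain that pairs with both other chains, spanned 5 steps. It was at 2, 2, 3, 5 and 4 steps with maslinic acid, against 5, 0, 2, 3 and 3 steps with vehicle, so the groups lay across each other (g = 0.34, -0.80 to 1.46). Cd3g, the gamma chain, also spanned 5 steps, with 2, 1, 0, 4 and 5 steps in maslinic acid mice, against 1, 5, 2, 5 and 3 steps in vehicle mice (g = -0.37, -1.50 to 0.77). In these 3 neighbouring genes of a single protein complex, the differences of the group means were -8026, 0.6 and -0.8 steps.

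Cd8a, the coreceptor of cytotoxic T cells that binds MHC class I, had 5 probe sets. The one used (mean score 6.54) was at 2, 0, 2, 7 and 4 steps with maslinic acid, against 5, 4, 7, 7 and 3 steps with vehicle. Its groups overlapped (g = -0.88, -2.05 to 0.34), and maslinic acid replicate 4 tied with vehicle replicates 3 and 4 at the top. Of the other 4 probe sets 3 had negative g, from -0.96 to -0.66, and 1 a positive g of 0.60, each with an interval that held 0.

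Cd28, the costimulatory receptor for CD80 and CD86, was highest in vehicle replicate 3, as Cd3d was. It was at 20, 5, 22, 38 and 41 steps in maslinic acid mice, against 4, 37, 104, 14 and 0 steps in vehicle mice. The vehicle arrays held both the highest and the lowest value (g = -0.19, -1.30 to 0.94), and without vehicle replicate 3 the g was 0.66. Its other probe set was also highest in vehicle replicate 3, at 62 steps, against 0 to 28 steps in the other arrays (g = -0.75, -1.91 to 0.44).

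Zap70, the kinase that docks on phosphorylated CD3 and zeta chains, was at 4, 1, 0, 2 and 6 steps with maslinic acid, against 3, 1, 9, 9 and 9 steps with vehicle. Vehicle replicates 3, 4 and 5 lay above all maslinic acid arrays, and vehicle replicates 1 and 2 among them (g = -1.0, -2.20 to 0.24, and -0.49 without vehicle replicates 3 and 5). In its other 2 probe sets the g was -0.23 and 0.00. Il2rb, the beta chain shared by the receptors for interleukin-2 and interleukin-15, was at 47, 7, 0, 66 and 59 steps with maslinic acid, against 31, 55, 33, 82 and 30 steps with vehicle. Maslinic acid replicates 2 and 3 were the lowest arrays, and the other 3 lay within the vehicle range (g = -0.35, -1.47 to 0.79). The other Il2rb probe set had a g of 0.32 (-0.82 to 1.44).

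**Figure D2:**
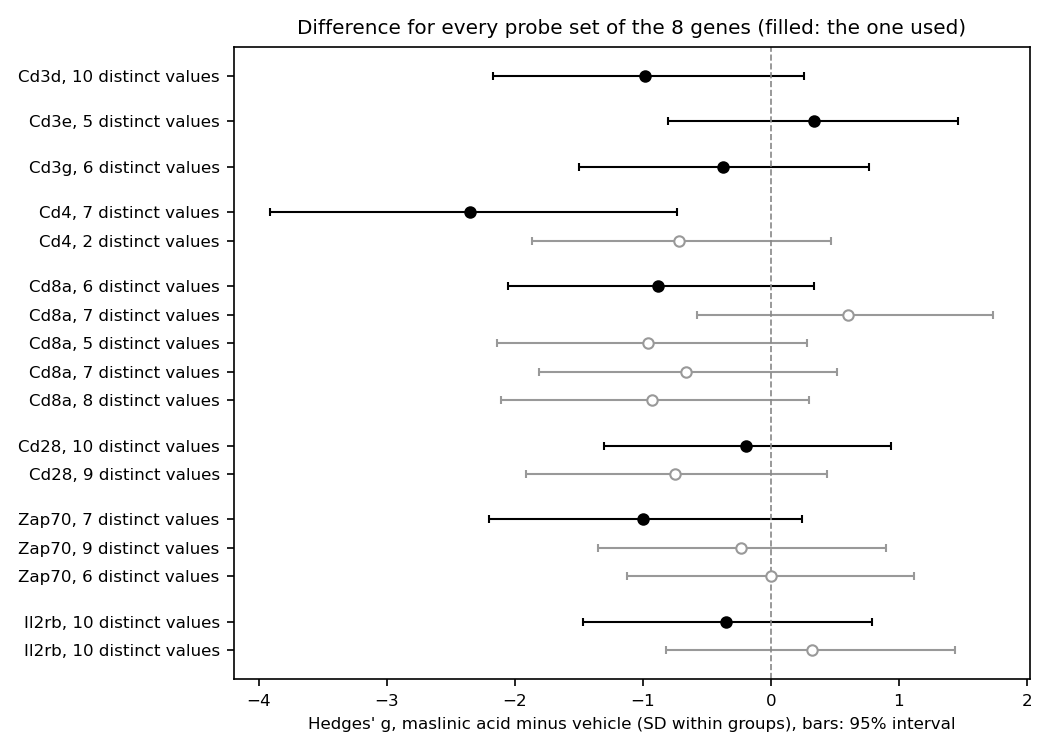
Hedges' g of maslinic acid minus vehicle for each of the 17 probe sets of the 8 genes, on the horizontal axis as a multiple of the pooled SD, with 95% intervals (n = 5 each); filled black points are the probe sets used and open grey points the others of the same gene. The interval lies clear of 0 for the used Cd4 probe set alone, at -3.91 to -0.73, and the signs of Cd8a and Il2rb differ between probe sets.

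In the fit across all 39993 probe sets with limma and Benjamini-Hochberg adjustment, 0 of the 8 genes passed at an adjusted p under 0.05, beside 0% of all probe sets (lowest adjusted p = 0.148), and Cd4 had an adjusted p of 0.455. At an unadjusted p under 0.05 there was 1 of the 8, Cd4, beside 8.83% of all genes (9.04% or 3617 of the probe sets, and 2741 by the exact Wilcoxon test). The Wilcoxon test also passed 0, but its smallest possible p with 5 against 5 arrays is 0.00794, which adjustment over 39993 probe sets lets pass only where very many share it, so that count says little. From that count nothing is read. Negative g were found for 7 of the 8 genes and 49.7% of all genes, with a median g of -0.63 over the 8 and 0.00 over all genes. These counts moved with the scaling. After quantile normalization 4 of the 8 were lower and the median was 0.11, while all genes had a median of -0.18. With arrays centred on their medians all 8 were lower, as were 85.1% of all genes. Neither scaling checks genes of small range, so no change of direction is read from these counts. Without vehicle replicates 3 and 5, 6 of the 8 were lower, with a median g of -0.56. The g was then -1.2 for Cd3d, 0.26 for Cd3e, -0.51 for Cd3g, -0.87 for Cd8a, 0.39 for Cd28 and -0.61 for Il2rb, so that Cd28 turned.

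Whether the other T cell genes followed Cd4 was asked by correlation over the 10 arrays, with p-values from 100000 permutations adjusted over 18037 genes that varied. Of the 7 genes, 6 had a positive Pearson r with Cd4, against 50.7% of all genes, and the median r was 0.46, against 0.01 over all genes. The group difference for which Cd4 was chosen enters these r, so nothing is read from that count. In deviations from the group means 5 of the 7 were positive, beside 51.9% of all genes. The median r was then 0.28, against 0.01 over all genes. None of the 7 passed, and 0 reached an unadjusted permutation p under 0.05 by Pearson's r, beside 0% of all genes at an adjusted p under 0.05 and 6.49% at an unadjusted p under 0.05. By Spearman's rho 0 genes passed as well (lowest adjusted p = 0.0902). Cd3d alone of the 7 reached an unadjusted permutation p under 0.05 by rho (0.0474), as did 1292 of the 18037 genes. With 7 distinct values of Cd4 over 13 steps, these correlations carry the rounding of both genes.

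Cd3g had the highest r with Cd4, 0.58 (permutation p = 0.0852, adjusted p = 0.797), and a rho of 0.62 (p = 0.0626, adjusted p = 0.695). Cd8a followed with r = 0.54 (permutation p = 0.109, adjusted p = 0.805) and rho = 0.58 (p = 0.0818, adjusted p = 0.721). Il2rb had r = 0.48 (permutation p = 0.163, adjusted p = 0.818) and rho = 0.40 (p = 0.249, adjusted p = 0.837). Both measures were positive in these 3 genes, as they were in Zap70 and Cd3d, which follow.

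For Zap70 r was 0.46 (permutation p = 0.177, adjusted p = 0.826) and rho 0.47 (p = 0.167, adjusted p = 0.798). For Cd3d r was 0.41 (permutation p = 0.237, adjusted p = 0.850) and rho 0.65 (p = 0.0474, adjusted p = 0.691). For Cd28 r was 0.25 (permutation p = 0.495, adjusted p = 0.905) and rho -0.01 (p = 0.981, adjusted p = 1). Cd3e ran against Cd4, with r = -0.35 (permutation p = 0.330, adjusted p = 0.868) and rho = -0.10 (p = 0.773, adjusted p = 0.976).

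Without the 2 arrays farthest from the median of Cd4, vehicle replicate 2 and maslinic acid replicate 2, r was 0.88 for Zap70, 0.57 for Cd3d and 0.47 for Cd8a, and 0.34, 0.24 and 0.09 for Cd3g, Il2rb and Cd28. It was -0.27 for Cd3e. So the r of Zap70 was higher and those of Cd3g and Il2rb lower once these arrays were left out. The difference between the groups enters each of these r. In deviations from the group means, r was 0.71 for Cd3g and 0.55 for Il2rb, but 0.06 for Zap70 and -0.04 for Cd3d, with 0.30 for Cd8a, 0.28 for Cd28 and -0.32 for Cd3e. Within groups Cd3g and Il2rb thus had the highest r and Zap70 and Cd3d r near 0, but 0 of the 7 passed (adjusted permutation p = 1 for each), and over all arrays the r of Cd3g was -0.40 after quantile normalization. Without vehicle replicates 3 and 5, r was 0.66 for Cd3g, 0.62 for Il2rb, 0.60 for Cd3d, 0.59 for Cd8a, 0.35 for Cd28, 0.29 for Zap70 and -0.34 for Cd3e, each of the same sign as over all 10 arrays. Among the 28 pairs of the 8 genes, 22 had a positive r, and the highest was 0.88, between Cd3g and Il2rb. Cd3g took 6 distinct values over 5 steps. In deviations from the group means 21 of the pairs were positive, with a median r of 0.26. Pairs of other genes were not counted, so nothing is read from these counts.

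**Figure D3:**
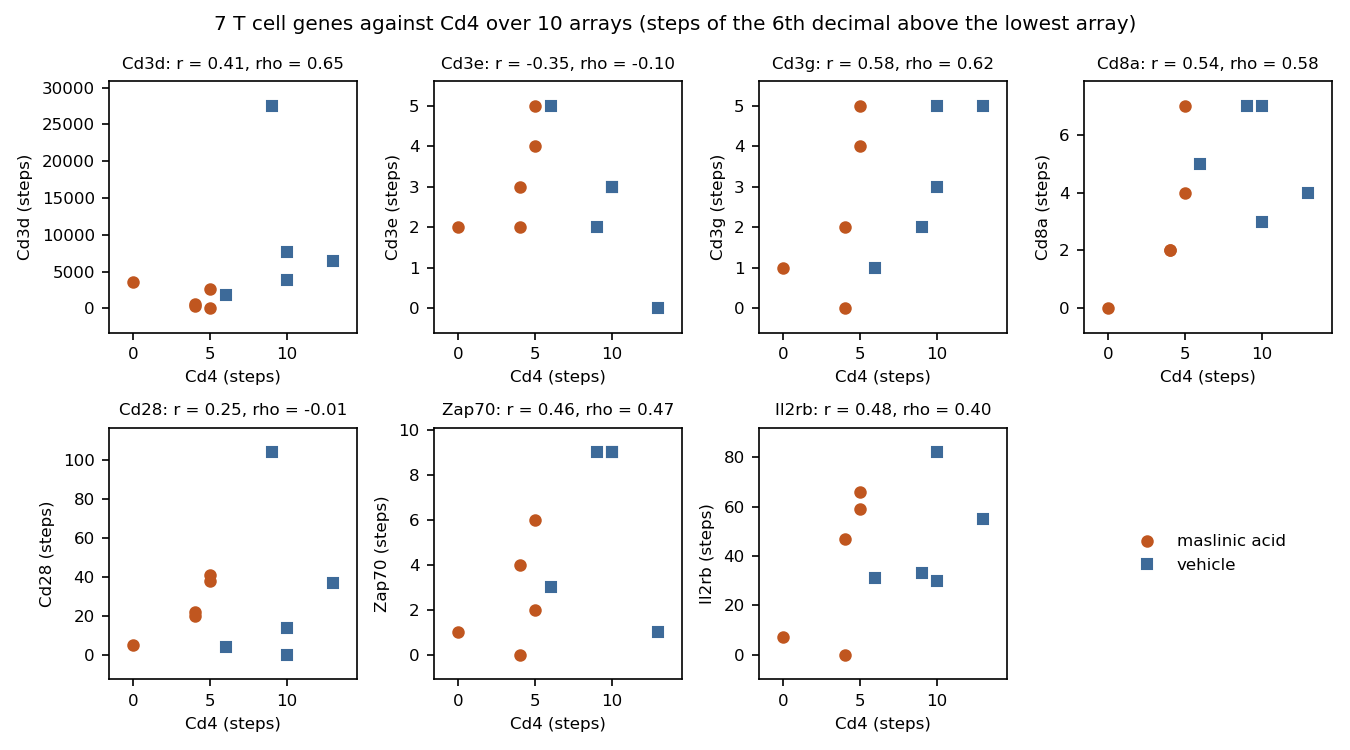
Each of the 7 other T cell genes (vertical axis) against Cd4 (horizontal axis) in 10 arrays, both in steps of the 6th decimal above the lowest array; orange circles are maslinic acid and blue squares vehicle mice, and each panel gives Pearson's r and Spearman's rho. Points scatter widely in every panel, and the highest r is 0.58, for Cd3g.

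The genes most like Cd4 among the 6743 with 10 distinct values were Tedc1, which works with tubulins at centrioles, Ltb, the lymphocyte cytokine lymphotoxin beta, the predicted gene Gm11346, Cyba, a membrane subunit of the phagocyte NADPH oxidase, and Chst13, a chondroitin sulfotransferase. Their r over 10 arrays ran from 0.87 to 0.92 (rho 0.85 to 0.88), and 0 passed (adjusted permutation p of 0.519 to 0.575). Ltb was at 0 to 65 steps with maslinic acid (median 32), against 100 to 353 steps with vehicle (median 272), so its groups did not overlap (r = 0.90 with Cd4, and 0.69 in deviations from the group means). Cyba, at 0 to 27 steps with maslinic acid against 33 to 63 steps with vehicle, did not overlap either, nor did Chst13, at 0 to 9 steps with maslinic acid against 13 to 44 steps with vehicle. Likeness to Cd4, whose groups do not overlap, favours such genes, so nothing is read from these gaps beside the 0.734% of all genes. The lowest r were those of Fzd4, a Wnt receptor (-0.90), Smurf2, a ubiquitin ligase of the TGF-beta pathway (-0.88), and Rab11fip2, a partner of the recycling GTPase RAB11 (-0.88). None of the 3 passed (adjusted permutation p = 0.575 for each). Fzd4 was at 73 to 107 steps with maslinic acid, against 0 to 87 steps with vehicle, and Smurf2, whose groups did not overlap, at 17 to 36 steps with maslinic acid, against 0 to 16 steps with vehicle.

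Other genes of T cell receptor signalling, 83 in 6 lists of which 71 were measured, had g on both sides of 0. Negative g were found for 41, positive g for 29 and 1 did not vary, with a median g of -0.17, against 0.00 over all genes. None of the 71 passed, and 5 reached an unadjusted p under 0.05 in limma, 4 lower and 1 higher. That is 7.04%, beside 8.83% of all genes in either direction (4.54% lower and 4.29% higher). Like the 8 genes above, many of these hardly varied, and 24 took 7 or fewer distinct values.

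Receptor partners had 3 of 4 lower. Trat1, an adaptor that associates with the receptor, was at 0, 0, 0, 1 and 1 steps with maslinic acid, against 3, 1, 2, 1 and 3 steps with vehicle (g = -1.79, -3.17 to -0.34, adjusted p = 0.517 in limma). Cd247, the zeta chain that carries most of the signalling motifs, was at 9, 4, 6, 4 and 3 steps with maslinic acid, against 0, 2, 0, 6 and 4 steps with vehicle (g = 1.01, -0.24 to 2.21). Cd247 thus lay the other way from Cd4 and Trat1, with overlapping groups. After quantile normalization the g of both Cd247 and Trat1 was 0.00. A g of 0 was also assigned to any probe set left with no variation, so no difference is read from these values. The constant regions of the clonal receptor chains were not analysed here.

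Proximal signalling genes were lower in 13 of 19 (median g = -0.40). Ptprc, the leukocyte phosphatase CD45, was at 29, 0, 9, 21 and 13 steps with maslinic acid, against 28, 59, 68, 24 and 24 steps with vehicle (g = -1.40, -2.67 to -0.06, adjusted p = 0.523 in limma). Its probe set had a mean score of 11.15, at percentile 98.4, and CD45 is carried by all leukocytes. The g of Ptprc was -0.57 after quantile normalization and -0.63 with arrays centred on their medians. Plcg1, the phospholipase that LAT recruits and that most tissues express, was at 36, 48, 73, 39 and 63 steps with maslinic acid, against 23, 35, 33, 33 and 0 steps with vehicle (g = 1.6, 0.21 to 2.93, adjusted p = 0.491 in limma). Plcg1 was the only gene of the 71 whose groups did not overlap, higher with maslinic acid, as in 0.645% of all genes, and its g was -0.45 after quantile normalization and -0.08 with arrays centred on their medians.

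Costimulation and checkpoint genes were lower in 10 of 16 (median g = -0.09). Cd80, a ligand of CD28 on antigen-presenting cells, was at 0, 1, 0, 1 and 2 steps with maslinic acid, against 2, 3, 5, 3 and 4 steps with vehicle (g = -2.35, -3.90 to -0.72, adjusted p = 0.467 in limma), and at 0.18 after quantile normalization. Tnfrsf9, the costimulatory receptor 4-1BB, had a g of 1.01 (-0.23 to 2.21), -0.32 after quantile normalization and -0.19 with arrays centred on their medians. Lists for the receptors of interleukin-2 and interleukin-15 (4 of 10 lower, median g = 0.09) and for T cell surface proteins and transcription factors (4 of 13 lower, median g = 0.18) had 0 genes at an unadjusted p under 0.05 in limma. Their genes of lowest p had g of 0.75 for Stat5b and -0.64 for Il15, a transcription factor and a ligand of that receptor pathway, and 0.56 for Thy1, a surface glycoprotein that fibroblasts also carry, and -0.36 for Gata3, the helper type 2 regulator. Without vehicle replicates 3 and 5 the g of Il15 turned to 0.33 and that of Thy1 to -0.37, and that of Gata3 was -2.46 (adjusted p = 0.528 in limma). After quantile normalization Gata3 turned to 0.93 and Stat5b to -0.36. Effector cytokines were lower in 7 of 9 (median g = -0.43), with 0 taking 10 distinct values. Il4, a helper type 2 cytokine, had a g of -1.13 (-2.34 to 0.15) and Il10, an anti-inflammatory cytokine, one of 0.69 (-0.49 to 1.84). Without vehicle replicates 3 and 5 these were -0.78 for Il4 and 1.18 for Il10, and with centred arrays Il10 turned to -0.32.

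The medians of these lists moved with the scaling. After quantile normalization the proximal signalling list had a median of -0.57 and the costimulation list one of -0.25, against -0.18 over all genes. The receptor partners, surface and transcription factor and cytokine lists then had a median g of 0.00, and the interleukin receptor list one of -0.22. Genes left with no variation were counted at a g of 0 there. The receptor partners had 0 lower and 2 higher of 4, the surface list 6 and 6 of 13, and the cytokine list 4 and 4 of 9. No change of direction is read from the medians of 0.00. With arrays centred on their medians, all 6 lists had medians between -0.41 and -0.36, against -0.39 over all genes, so nothing is read from the centred medians. Without vehicle replicates 3 and 5, 46 of the 71 genes were lower (median g = -0.33). The interleukin receptor list then had a median of -0.25 and the surface and transcription factor list one of -0.12, both below 0. The cytokine list had 3 lower and 4 higher with a median of 0.00, and the proximal signalling list a median of -0.78.

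**Figure D4:**
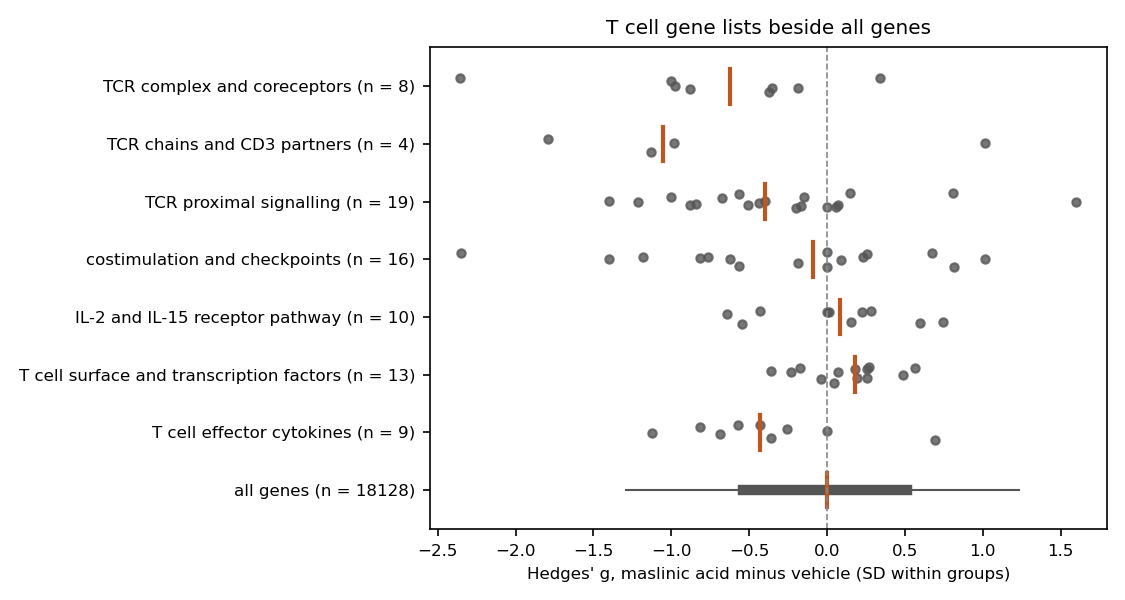
Hedges' g of maslinic acid minus vehicle (horizontal axis, multiples of the pooled SD) for the 8 genes and for 6 lists of other T cell genes; points are genes, orange bars medians, and the lowest row gives all 18128 genes with the 25th to 75th percentile as the thick line and the 5th to 95th as the thin line. Medians of the 6 lists lie between -1.06 and 0.18, against -0.63 for the 8 genes and 0.00 over all genes.

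Markers of cell types were scored per array as the mean z-score over the genes of a list. Synovial fibroblast genes lay above the table median in 11 of 12, with Dcn, the matrix proteoglycan decorin, at percentile 99.8 of all mean scores. Skeletal muscle, neutrophil and macrophage markers lay above it in 10 of 10 each, erythroid markers in 4 of 4 and T cell markers in 5 of 9. As scores depend on the probes and other cell types' markers lay as high, these counts do not test the synovium label. The T cell score ran from -0.59 to 0.58 in maslinic acid mice, against -0.27 to 0.19 in vehicle mice, so the groups overlapped throughout although Cd4 did not. That list holds Cd3d, Cd3e and Cd3g, described above, and Thy1, which is also in the fibroblast list. Of its 9 measured genes 4 took 7 or fewer distinct values, and all weigh alike in the score.

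Markers of some other cell types lay to one side, with 0 of them passing in limma. Negative g were found for 10 of 10 neutrophil and 8 of 9 B cell markers, and positive g for 12 of 12 synovial fibroblast, 10 of 10 skeletal muscle, 4 of 4 erythroid and 8 of 10 macrophage markers, beside negative g for 49.7% of all genes. Natural killer and cytotoxic cell markers were lower in 8 of 11, dendritic cell markers in 5 of 8 and T cell markers in 5 of 9. The counts were made on the unaltered scores alone. Genes of a list are not independent of each other, so nothing is read from the counts beside that share. The neutrophil list had scores of -0.65 to -0.22 in maslinic acid mice, against -0.17 to 1.32 in vehicle mice, so they did not overlap, as Cd4 did not, and the other 3 vehicle arrays beside replicates 3 and 5 ran from 0.06 to 0.64. S100a9, the neutrophil marker of highest mean score, took 2 values 1 step apart. B cell scores ran from -1.44 to 0.29 with maslinic acid, against -0.65 to 1.58 with vehicle, and the vehicle array of the highest B cell score, replicate 2, also had the highest Cd4 and the lowest skeletal muscle score of the 10 arrays, -1.88. Dendritic cell scores, which bear on Cd4 and Cd8a outside T cells, ran from -0.36 to 0.34 with maslinic acid, against -0.50 to 1.05 with vehicle, with Itgax at a g of -0.14 (-1.26 to 0.98). Macrophage scores ran from -0.45 to 0.68 with maslinic acid, against -1.07 to 0.40 with vehicle. Synovial fibroblast scores ran from -0.20 to 0.92 with maslinic acid, against -0.62 to 0.23 with vehicle, and skeletal muscle scores from -0.74 to 0.92 with maslinic acid, against -1.88 to 0.69 with vehicle. The part of these cells in the Cd4 values was not tested.

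**Figure D5:**
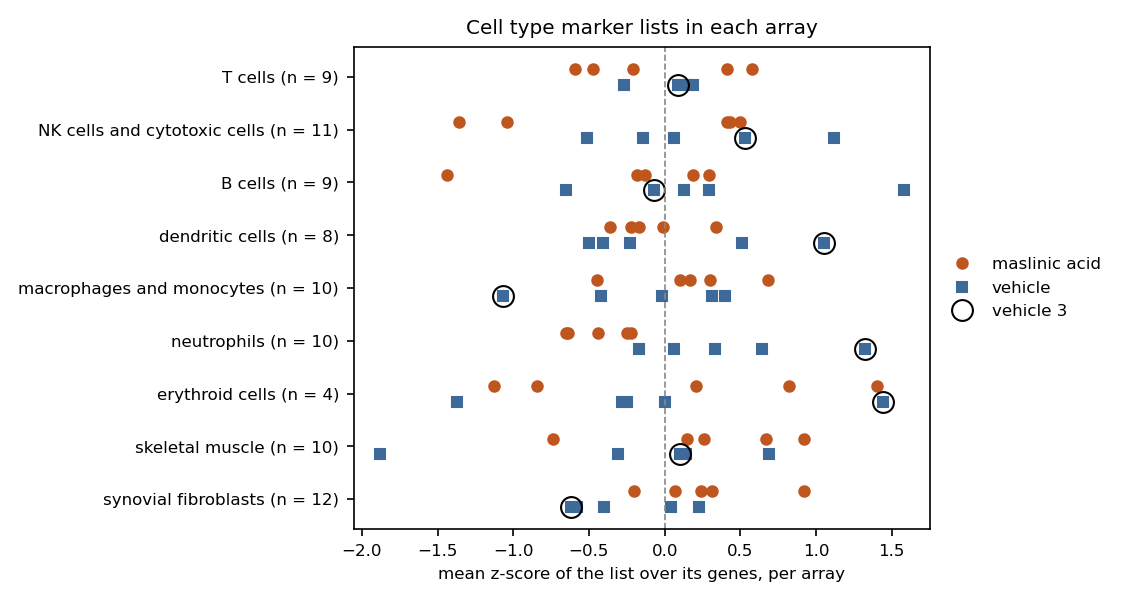
Mean z-score of 9 cell type marker lists in each array (horizontal axis), with orange circles for maslinic acid, blue squares for vehicle and a black ring around vehicle replicate 3. The T cell scores of the groups overlap, from -0.59 to 0.58 with maslinic acid against -0.27 to 0.19 with vehicle, while the neutrophil scores of maslinic acid mice all lie below those of vehicle mice.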

How the data were processed

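Total RNA from synovium was labelled with biotin for GeneChip arrays, per the labels' protocols. The authors deposited a score for each probe set. R 3.2.1 stands in the submitters' processing notes, while for background correction, normalization and summary no method is given in the sources used here. Values had been foreseen as log2, and every test took the scores unaltered. Of 39993 probe sets, 34202 named 1 gene in the platform annotation, 931 named several and 4860 were unnamed here. Genes were represented by their probe set of highest mean, and missing list genes are left out of counts. All per-sample columns were used.

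Maslinic acid was compared with vehicle with limma 3.58.1 in R 4.3.3 (lmFit, then eBayes, two-sided) over all probe sets, with Benjamini-Hochberg adjustment and a threshold of 0.05. Intervals of Hedges' g are from the noncentral t distribution. Correlations used Python 3.11.15 with numpy 2.4.6, scipy 1.17.1 and pandas 2.3.3, figures matplotlib 3.10.9. The scripts were tested on simulated data. Precision is limited by how many arrays there are. The members, lists and the arrays left out were chosen with earlier results of these data known. Genes named were the members, the gene of lowest p in each direction in each T cell list, the 5 genes of highest and 3 of lowest r with Cd4 among those with 10 distinct values, and the marker of highest mean in each list, of which some stand in the counts only. Alternatives were quantile normalization, centring on array medians, filters on level and on distinct values, trended and robust eBayes, array weights, the replicate number as a block, other choices of probe set, the exact Wilcoxon test, Spearman's rho, deviations from group means and arrays left out. No pairing of replicate numbers is stated, and in the check of it same-numbered arrays correlated between -0.38 and 0.32, over 0.1 in 2 of 5 pairs, so the numbers were not taken as pairs.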

Additional observations from a re-analysis of the deposited data

Results flagged for a closer look

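Of 16 groups of 5 arrays tested for a value far from the others, 2 were found. In independent groups of normal values chance gives about 1 in 20. Most of these genes took few distinct values, and the genes share the same arrays, so that rate may not hold here. Cd3d in vehicle replicate 3 stood at 27530 steps, and its gap to the next array was 0.770 of the range of the vehicle group. That array had a low quality weight of 0.458 in limma, against 0.339 to 2.01 for the other arrays, and it held the highest value of 20.9% of the 6743 genes with 10 distinct values. Without it the g of Cd3d was -1.47, in the same direction. Cd4 in maslinic acid replicate 2 stood at 0 steps, 4 steps below the next array, a gap of 0.800 of the range of its group. Without that array the g of Cd4 was -2.34.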

How the results depend on the processing

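The count of the 8 genes past the threshold was 0 in each of the 22 alternatives run. Over all probe sets it was 0 except for 8 after quantile normalization and 0 to 1 with single arrays left out, and unadjusted counts ran from 737 to 4579. No gene passed the correlation with Cd4 except with arrays centred on their medians, where 15391 genes and all 7 members passed, with r of 0.85 to 1.00: array medians span 272 steps, and centring writes that pattern into every gene of small range. The sign of r turned for Cd28 by Spearman's rho (-0.01), for Cd3d in deviations from group means (-0.04), for Cd3g after quantile normalization (-0.40), and for Cd3e after quantile normalization (0.62), with centred arrays (1.00) and without vehicle replicate 2 (0.07; without single arrays -0.61 to 0.07). Of 168 values of g, 162 moved by less than 1 SD, and 6 by more, namely Cd4 to -0.46 with centred arrays and, after quantile normalization, Cd4 to -0.80, Cd3e to -1.07, Cd3g to 0.82, Cd8a to 0.29 and Zap70 to 0.44. The cause of the moves after quantile normalization was not tested, and the centred g of Cd4 carries the array medians. Neither scaling checks a gene of small range. With the replicate number as a block 0 probe sets passed and the g of Cd4 was -1.65, against -3.17 to -2.14 without single arrays. The correction for small samples differs between these fits, so their g are not strictly on the same scale. The sign of the r of Cd28 with Cd3d also turned, to -0.28, without vehicle replicate 3, a check chosen after seeing the data. The replicate numbers are not known to pair mice, and 4 of 10 arrays correlated best with the array of the same number in the other group.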

Other observations

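The genes most like Cd3d over the 10 arrays, chosen after its values were seen and given with no test, were Tex15, a germ cell gene (r = 0.99), Fcnb, the myeloid lectin ficolin B (0.99), Senp7, a SUMO protease (0.98), Retnla, a marker of alternatively activated macrophages (0.98), and Ramp1, a subunit of the CGRP receptor (0.98). All 5 were highest in vehicle replicate 3, and without that array their r were 0.93 for Tex15, 0.87 for Fcnb, 0.80 for Senp7, 0.83 for Retnla and 0.77 for Ramp1. Cd28 had r = 0.79 with Cd3d, and -0.28 without vehicle replicate 3. In that array the neutrophil score was 1.32, the erythroid score 1.44 and the dendritic cell score 1.05, each the highest of the 10 arrays. The macrophage score was -1.07 and the synovial fibroblast score -0.62, each the lowest. Its T cell score of 0.09 lay within the range of the other arrays, as did its natural killer and cytotoxic cell, B cell and skeletal muscle scores.

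Maslinic acid replicates 2 and 3, the 2 arrays of lowest Il2rb, also had the 2 lowest scores of natural killer and cytotoxic cell markers, at -1.04 and -1.36, against 0.41 to 0.50 in the other maslinic acid mice and -0.51 to 1.12 in vehicle mice. The granule protein gene Nkg7 was at 1049 and 0 steps in them, against 2938 to 4049 steps in the other maslinic acid mice and 2441 to 10617 steps in vehicle mice. The other Il2rb probe set was at 28 and 126 steps in these 2 arrays, against 284 to 340 steps in the other maslinic acid mice and 0 to 310 steps in vehicle mice. T cell scores were -0.59 and -0.47 in them, also the 2 lowest of the 10 arrays. Erythroid scores were low there too, at -1.13 and -0.84, against 0.21 to 1.40 in the other maslinic acid mice and -1.37 to 1.44 in vehicle mice. This pattern was noticed in the data and not tested.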
